A study of Mus musculus with 18 samples.

Results

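RNA of murine erythroleukemia (MEL) cells on day 4 after the inducer HMBA was compared with RNA of uninduced cells on a spotted 2-colour array of 6868 probes. MEL cells are a virus-transformed mouse line arrested as erythroid precursors, and HMBA, hexamethylene bisacetamide, is a chemical inducer of their differentiation. Members were the probes with a value on both day 4 arrays and on at least 1 day 0 array: 1707 of 6868 probes, of which 1131 had values on all 4 arrays, 536 lacked day 0 of series B and 40 lacked day 0 of series A. Of the 1707, 1508 carried 1 gene symbol. The day 4 group held 2 arrays, titled with the series letters A and B. Per the labels, 1 channel of each carried RNA of cells 4 days after HMBA and the other carried RNA of cells without HMBA. The day 0 group also held 2 arrays, A and B, with uninduced control RNA in both channels. Both groups therefore share uninduced RNA as the second channel. No label gives a subclone, a dose of HMBA or separate cultures, so p-values measure the spread between these arrays, which may be technical.

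Values are log2 ratios, from which the median of their own array was subtracted. A positive value is read here as more RNA in the sample named for that day. This direction is likely and not settled: the labels list induced RNA as the first channel on day 4 arrays, and the adult globin probes were positive there, which is the textbook change and was used to read the direction, so globins are no independent evidence of it. Numerator channel, dyes and earlier normalization are not given in the sources used here.

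Terminal erythroid differentiation replaces a dividing precursor by a cell filled with hemoglobin. Adult alpha- and beta-globin genes come on with heme synthesis, iron uptake and the red cell membrane skeleton, under factors such as GATA1, KLF1, TAL1 and NFE2. The progenitor factor MYB is shut down as cells leave the cell cycle, and ribosome production declines.

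Genes on all 4 arrays were ranked by the smaller of their differences in series A and B. Among the highest ranked with day 4 ratios far above 0 were the alpha-globin probe, labelled Hba-ps3, the adult beta-globin probe Hbb-b2, Itga2b, the integrin alpha-IIb chain of megakaryocytes and early progenitors, and S1pr2, a sphingosine-1-phosphate receptor. Among the genes ranked on the lower side were Ndst2, an enzyme of heparin and heparan sulfate synthesis, Myb, and Ifi203, an interferon-inducible DNA-binding protein, with day 4 ratios far below 0. None of these passed the test over all probes. Of 1707 probes, 0 had a limma adjusted p under 0.05 (0.0% called), and 49 (2.87%) had an unadjusted p under 0.05, 22 higher and 27 lower. That unadjusted share is below the fraction of 0.05 that such a cutoff passes on average where nothing differs. The smallest adjusted p was 0.411, for Hba-ps3. A fit to the 4 arrays of days 0 and 4 alone called 1 probe, Hba-ps3, at adjusted p = 0.0401 by limma. Data were simulated with the prior spread of the fit, equal and independent across arrays. There a change of 2 log2 was recovered in 2.4% of cases and a change of 4 log2 in 43.4%, with a mean of 3 false calls. In that setting smaller changes were mostly not detected with 2 arrays a group. The real arrays differed in spread, so the shares may not hold for them.

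The 4 arrays differed in how much they measured. Day 0 of series A held 4447 values and day 4 of series A 4187, against 2037 and 2180 in series B. Values spread more in series B, with an SD of 1.40 at day 0 and 1.73 at day 4, than in series A, with 0.82 and 1.31. The day 0 arrays carried control RNA in both channels, yet their ratios correlated at r = 0.735 over 1935 probes. The day 4 arrays correlated with each other at r = 0.561 over 1829 probes. Day 4 correlated with day 0 at r = 0.528 over 3280 probes in series A and r = 0.636 over 1349 in series B. The day 4 minus day 0 differences of series A and B correlated at only r = 0.235 over 1131 probes. Ratios are therefore given per array, and a difference set by day 0 values is named as such. The parts of series letter, array quality and culture in these values were not tested.

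Over the 1131 probes on all 4 arrays, the day 4 minus day 0 difference was taken within series A and within series B. The difference had the same direction in both for 653 probes (57.7%), higher for 436 (38.5%) and lower for 217 (19.2%), and opposite directions for 478 (42.3%), of which 328 (29.0%) were higher in series A and lower in series B and 150 (13.3%) the reverse. With a difference of at least 1 log2 in both series, 77 probes were higher (6.81%) and 50 were lower (4.42%), 127 in all (11.2%), against 57 (5.04%) that differed by as much in opposite directions. At 2 log2 the counts were 9 higher and 9 lower (0.796% each, 1.59% in all), against 4 in opposite directions (0.354%). The median difference was 0.44 log2 in series A and 0.065 in series B. Without centring the median over all 1707 probes moved from 0.11 to 0.52, and the same-direction probes split into 576 higher and 143 lower. Counts of higher against lower probes are read relative to that shift.

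Large differences arose in more than 1 way. Of the 77 probes higher by at least 1 log2 in both series, 59 had both day 4 ratios above 0, and 44 of these had day 0 ratios within 1 log2 of 0. Of the 50 lower probes, 30 had both day 4 ratios below 0 and 13 of these had day 0 ratios within 1 log2 of 0. In the lower group 36 probes had both day 0 ratios above 0, and the group's median ratios went from 0.81 and 1.05 at day 0 to -1.39 and -0.76 at day 4 in series A and B. A gene can thus differ because day 4 cells differed from their paired control, because the day 0 array gave an unequal ratio between control samples, or both.

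Of the globins, 4 of 7 probes were measured in the comparison. Alpha-globin, printed on the array as the pseudogene Hba-ps3, read 0.51 and 0.67 at day 0 in series A and B and 4.96 and 6.38 at day 4. The groups stood far apart, and the near-identical alpha-globin genes cannot be separated by this probe. The difference was 5.08 log2 (SE 1.10, n = 2 arrays a group; 33.8-fold; unadjusted p = 0.000241, adjusted p = 0.411, limma). Adult beta-globin Hbb-b2 read 0.31 and -0.25 at day 0 and 3.57 and 2.65 at day 4. Both day 4 values lay above both day 0 values, by 3.08 log2 on average (SE 1.06; 8.49-fold; adjusted p = 0.9977, limma), and the closely related beta-globin genes may share its signal. Embryonic beta-like Hbb-bh1 read 0.068 and -1.0 at day 0 and -0.29 and -0.12 at day 4. Embryonic zeta-globin Hba-x read 0.42 and -0.67 at day 0 and 0.43 and -0.87 at day 4. The embryonic globins overlapped between the groups, with differences of 0.26 (SE 0.97) and -0.094 (SE 1.14). Without day 0 of series B the Hbb-bh1 difference was -0.28, and without day 0 of series A the Hba-x difference was 0.45. The median of the 4 globin probes was 1.67, beside 0.11 for all 1707.

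Among the other higher genes, Itga2b read 0.32 and -0.37 at day 0 and 3.33 and 2.06 at day 4. The difference was 2.72 (SE 0.98, unadjusted p = 0.0123, adjusted p = 0.9977, limma). S1pr2 read 0.30 and 1.02 at day 0 and 2.65 and 5.36 at day 4. Its difference was 3.35 (SE 1.02, unadjusted p = 0.00448, adjusted p = 0.9977, limma). The day 4 values lay above the day 0 values in each gene, although S1pr2 was already at 1.02 on 1 day 0 array. Gcat, a mitochondrial enzyme of threonine breakdown to glycine, read -1.08 and -0.74 at day 0 and 1.21 and 2.41 at day 4, a difference of 2.72 (SE 0.94). Npy4r, a receptor of pancreatic polypeptide, read 0.61 and -0.63 at day 0 and 3.00 and 1.55 at day 4, a difference of 2.28 (SE 0.94). Dad1, a subunit of the oligosaccharyltransferase that glycosylates proteins in the endoplasmic reticulum, read 0.21 and -0.39 at day 0 and 1.86 and 2.06 at day 4, a difference of 2.05 (SE 0.92). These 3 genes had both day 4 ratios above 1 log2. Mbl2, a mannose-binding lectin of plasma, read 0.66 and -0.95 at day 0 and 2.49 and 0.76 at day 4, where its series B value lay close to the day 0 value of series A.

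The remaining higher genes had negative day 0 ratios in both series, to differing degrees. Bsg, the glycoprotein basigin, read -1.41 and -5.13 at day 0 and 1.09 and -2.00 at day 4. The groups overlapped, and the difference of 2.82 (SE 1.27) came with a day 4 mean of -0.45. Prdx2, the abundant peroxiredoxin of red cells, read -1.22 and -4.43 at day 0 and 0.83 and -1.43 at day 4. It overlapped as well, with a difference of 2.52 (SE 1.13) and a day 4 mean of -0.30. Taf10, a subunit of general transcription factor TFIID, read -0.69 and -2.73 at day 0 and 1.07 and -0.43 at day 4. Mt2, a metallothionein that binds zinc and copper, read -1.22 and -2.30 at day 0 and 1.65 and -0.54 at day 4. P4hb, protein disulfide isomerase, read -0.62 and -1.54 at day 0 and 1.42 and 0.23 at day 4. In these genes the day 4 ratio was positive in series A and lower in series B, and the differences were 2.03, 2.31 and 1.91. Ftl2-ps, a ferritin light chain pseudogene whose probe may also read other ferritin light chain RNA, read -1.36 and -0.066 at day 0 and 0.52 and 1.83 at day 4, a difference of 1.89 (SE 1.18).

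Among the lower genes, Ndst2 read -0.12 and -1.01 at day 0 and -4.25 and -4.29 at day 4. The day 4 arrays gave nearly the same value, and the difference was -3.70 (SE 1.17, unadjusted p = 0.00598, adjusted p = 0.9977, limma). Myb, the transcription factor that keeps progenitors immature, read -0.079 and -0.056 at day 0 and -3.13 and -3.21 at day 4. Its difference was -3.10 (SE 1.10, unadjusted p = 0.0112, adjusted p = 0.9977, limma). Both arrays of each day lay within 0.1 log2 of each other, and the day 0 arrays showed no inequality for it. Ifi203 read 0.80 and 1.22 at day 0 and -1.85 and -4.93 at day 4, a difference of -4.40 (SE 1.07; adjusted p = 0.69, limma). Uhrf1, which carries DNA methylation through replication, read 0.13 and 0.99 at day 0 and -1.83 and -2.19 at day 4, a difference of -2.57 (SE 0.93). H2-Q8, a class Ib histocompatibility gene with close relatives that may share its signal, read 0.73 and 0.38 at day 0 and -1.71 and -2.27 at day 4, a difference of -2.55 (SE 0.95). Pafah1b1, the dynein regulator Lis1, read 0.048 and 0.74 at day 0 and -2.14 and -1.82 at day 4, a difference of -2.38 (SE 0.99). In these genes the day 4 ratios were below -1.5 log2 on both arrays. Vamp5, a vesicle membrane protein, read -0.39 and -0.82 at day 0 and -1.97 and -3.60 at day 4, a difference of -2.18 (SE 1.04).

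The remaining lower genes had day 0 ratios above 0 in both series, and in Yy1 and Gpc1 the day 4 ratios were near 0. Yy1, a zinc finger transcription factor, read 2.10 and 1.95 at day 0 and 0.24 and -0.19 at day 4, a difference of -2.00 (SE 0.96) with a day 4 mean of 0.024. Gpc1, a cell surface heparan sulfate proteoglycan, read 1.68 and 1.62 at day 0 and 0.063 and -0.25 at day 4, a difference of -1.74 (SE 0.98). For Yy1 and Gpc1 the day 4 ratio did not depart from its control by more than 0.3 log2. Rrs1, a ribosome assembly factor, read 1.78 and 2.54 at day 0 and -1.62 and 0.26 at day 4, and Tiam1, an activator of the GTPase Rac, read 1.54 and 2.20 at day 0 and -1.65 and -0.14 at day 4. Their differences were -2.84 (SE 0.95) and -2.77 (SE 1.03), set partly by day 0. Abt1, a nucleolar activator of basal transcription, read 1.86 and 1.32 at day 0 and -0.18 and -1.29 at day 4. Kdr, a receptor for vascular endothelial growth factor, read 1.38 and 1.36 at day 0 and -0.71 and -1.64 at day 4. Their groups did not overlap, with differences of -2.33 and -2.55. Prkacb, a catalytic subunit of protein kinase A, and Wsb2, a SOCS-box protein, differed by -2.66 and -2.01.

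Over the 30 genes the SE was 0.91 to 1.31 log2. Of the 15 higher genes 11 had both day 4 ratios above 0, and of the 15 lower genes 12 had both below 0. Membership was set by the smaller of both within-series differences, which was 1.65 for Dad1, the last gene taken on the higher side, and 1.60 for Cct2, the first left out. On the lower side it was 1.58 for both Vamp5, taken, and Phgdh, left out.

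Upstream sequence is shown for those of the 15 highest and 15 lowest ranked genes with day 4 ratios beyond 2 log2 on both arrays and a RefSeq promoter on GRCm38.p6 among the sequences given: Itga2b and S1pr2 on the higher side, Ndst2 and Myb on the lower. Each sequence is the 250 bases before the annotated start, 5′ to 3′ in the direction of transcription, with motif matches in capitals. All 4 genes lie on the minus strand, and the windows are chr11:102469884-102470133 for Itga2b, chr9:20976794-20977043 for S1pr2, chr14:20734563-20734812 for Ndst2 and chr10:21160985-21161234 for Myb.
Itga2b: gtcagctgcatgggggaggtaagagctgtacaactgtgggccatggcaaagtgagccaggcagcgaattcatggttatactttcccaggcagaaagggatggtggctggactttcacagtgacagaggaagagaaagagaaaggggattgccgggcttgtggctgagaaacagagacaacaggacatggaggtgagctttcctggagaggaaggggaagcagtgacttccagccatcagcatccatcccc
S1pr2: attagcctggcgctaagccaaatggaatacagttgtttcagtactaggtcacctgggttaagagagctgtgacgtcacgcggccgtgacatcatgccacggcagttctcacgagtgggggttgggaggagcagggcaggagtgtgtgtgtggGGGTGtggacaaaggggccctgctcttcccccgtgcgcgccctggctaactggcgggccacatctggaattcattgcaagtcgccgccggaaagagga
Ndst2: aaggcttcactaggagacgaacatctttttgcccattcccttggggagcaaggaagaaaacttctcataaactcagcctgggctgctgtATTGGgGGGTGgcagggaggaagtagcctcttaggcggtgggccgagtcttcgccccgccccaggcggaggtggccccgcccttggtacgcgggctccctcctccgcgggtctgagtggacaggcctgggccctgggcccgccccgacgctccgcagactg
Myb: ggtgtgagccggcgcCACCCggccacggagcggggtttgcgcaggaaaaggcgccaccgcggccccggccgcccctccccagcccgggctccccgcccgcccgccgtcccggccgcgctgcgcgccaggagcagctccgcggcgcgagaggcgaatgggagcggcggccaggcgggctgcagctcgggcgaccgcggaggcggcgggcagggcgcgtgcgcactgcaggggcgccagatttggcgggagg
The motifs searched on both strands were the GATA site (AGATAA or TGATAA or AGATAG or TGATAG), the CACCC box (CACCC), the TATA box (TATAAA), the CCAAT box (CCAAT), the E-box (CACGTG) and the E2F site (TTCGCGC or TTGGCGC), none of which contains another. GGGTG and ATTGG are CACCC and CCAAT read on the other strand. S1pr2, Ndst2 and Myb each held 1 CACCC box, Ndst2 also held 1 CCAAT box, and Itga2b held no match. Among the named genes, 11 higher genes had 11 promoters and 12 lower genes had 17. A GATA site was in 3 of the 11 (27.3%) and 3 of the 17 (17.6%), beside 26.5% of all 32851 promoters. A CACCC box was in 8 of the 11 (72.7%) and 11 of the 17 (64.7%), beside 52.0% of all. No motif is claimed as a site of binding.

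The factors that drive the erythroid program were thinly measured. Of 22 probes for erythroid transcription factors 7 were in the comparison, 4 of them on all arrays. Stat5a, which signals from the erythropoietin receptor, read 0.70 and -0.13 at day 0 and 1.35 and 0.89 at day 4, a difference of 0.83 (SE 0.99). Ldb1, the bridge that joins GATA1 and TAL1 complexes, read -1.14 and -2.69 at day 0 and -2.19 and -3.94 at day 4, a difference of -1.15 (SE 0.98). Nfe2, a globin locus activator, had a day 0 value of -1.28 in series A alone and read -0.022 and -0.061 at day 4. Neither direction was shared across the list, whose median was 0.36, and -1.08 without day 4 of series A. Gata1 read 0.17 and -2.44 at day 0 and -1.02 on its single day 4 array, that of series A. Klf1 read -0.99 and -2.55 at day 0 and -0.17 at day 4, and Tal1 read -1.16 and -0.059 and then -0.79, each on day 4 of series A alone. Gfi1b, a repressor needed for red cell maturation, read -1.41 and -1.82 at day 0 and -1.83 at day 4. None of these 4 could enter the comparison. Their single day 4 values lay within the day 0 range for Gata1 and Tal1, above it for Klf1 and just below it for Gfi1b.

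Progenitor and proto-oncogene factors were lower in 7 of 9 kept probes, beside 44.3% of all 1707, with a median of -0.38, and 0.16 without centring and 0.08 without day 4 of series B. Besides Myb, both partners of the Myc network that were named had day 0 ratios above 1. Mnt, a repressor that pairs with Max, read 1.70 and 1.68 at day 0 and -0.67 and 0.62 at day 4, a difference of -1.72 (SE 0.93). Max read 1.66 and 1.09 at day 0 and -0.07 and 0.0046 at day 4, a difference of -1.41 (SE 0.90). The day 4 ratios of Max were at its control. Gata2, the GATA factor of progenitors, read -0.80 and -2.38 at day 0 and -0.47 and -2.16 at day 4, a difference of 0.28 (SE 0.98), and -0.51 without day 0 of series B. Myc read -1.14 and -2.14 at day 0 and -1.56 at day 4 of series A, inside the day 0 range. Spi1, the factor PU.1 whose activation by the virus blocks these cells, read -1.51 and -1.15 at day 4 and had no day 0 value. Kit, the stem cell factor receptor, read 0.52 at day 0 and 0.67 at day 4 in series A alone.

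Heme synthesis showed no shared direction in 3 kept probes of 8, with a median of -0.70, and 0.74 without day 0 of series A. Alad, which makes porphobilinogen, read -0.88 and -3.51 at day 0 and 0.28 and -2.88 at day 4, a difference of 0.89 (SE 1.32), and -0.42 without day 0 of series B. Cpox, coproporphyrinogen oxidase, read 0.37 and 0.42 at day 0 and 0.31 and -0.92 at day 4, a difference of -0.70 (SE 0.96). Ppox, protoporphyrinogen oxidase, read 0.24 at day 0 of series A and -1.30 and -2.21 at day 4, a difference of -2.00 (SE 1.33). The spread between arrays exceeded the difference for Alad and Cpox. Alas2, the erythroid enzyme of the first step, read -0.69 at day 0 of series B and 2.55 at day 4 of series A, with no array of the same series for both days. Fech, which inserts iron, read -1.07 at day 0 and 0.34 at day 4 of series A, and Alas1, the housekeeping form of the first enzyme, read -0.22 and then -1.42. Uros read -1.58 and the heme transporter Abcb10 1.13 on day 4 of series A, with no day 0 value.

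Iron handling differed by gene in 5 kept probes of 10, with a median of 0.11. Tfrc, the transferrin receptor that brings iron into erythroblasts, was singled out after its values were seen. It read -1.62 at day 0 of series A and 1.5 and 2.36 at day 4. The difference of 3.55 (SE 1.24, unadjusted p = 0.0123, adjusted p = 0.9977, limma) rests on 1 day 0 array. Ftl1, ferritin light chain, read -0.87 and -2.22 at day 0 and -0.26 and -0.011 at day 4, a difference of 1.41 (SE 1.02). Slc11a2, the iron transporter DMT1, read 1.44 and 1.40 at day 0 and -2.02 and 0.61 at day 4, a difference of -2.12 (SE 0.95) that was much greater in series A. Tfrc and Ftl1 were thus higher and Slc11a2 lower, and the list's median was -0.12 with equal spread of arrays, -0.21 with quantile normalization and -0.14 for day 4 ratios against 0.

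Red cell membrane and skeleton genes were higher in 10 of 10 kept probes by their mean difference, beside 55.7% of all 1707, with a median of 0.63, and -0.047 without day 4 of series A. Actb and Actg1, cytoplasmic actins, each supplied more than 1 of these probes. Rhd, Tpm3, Aqp1 and an Actb probe differed by only 0.022, 0.10, 0.16 and 0.22, each below its SE. Of 8 on all 4 arrays, 5 were higher in both series and 0 were lower in both, beside 38.5% and 19.2% of all 1131. The cytoplasmic actin Actg1 read -0.41 and -1.78 at day 0 and 2.03 and 0.56 at day 4 on 1 probe, and -0.33 and -0.75 at day 0 and 0.068 and 0.85 at day 4 on another. The probes gave differences of 2.39 (SE 0.95) and 1.00 (SE 0.99), the same in direction and unequal in size. Slc2a1, the glucose transporter GLUT1, read 0.53 and 1.46 at day 0 and 2.01 and 2.12 at day 4, a difference of 1.07 (SE 0.98). Rhag, the Rh-associated glycoprotein of the red cell membrane, read 0.48 and -0.23 at day 0 and 0.90 and 1.04 at day 4, a difference of 0.85 (SE 0.92). These members were named for their shared direction, so it is no finding about them. In the same list Aqp1, Tpm3 and 1 of the probes for Actb went opposite ways in series A and B, and the other Actb probe read -1.30 and -4.01 at day 0 and -0.99 and -3.21 at day 4, where the groups overlapped.

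DNA replication genes were lower in 16 of 23 kept probes, beside 44.3% of all 1707, with a median of -0.81, and 0.043 without day 0 of series A. On all 4 arrays, 7 of 17 were lower in both series and 5 were higher in both, beside 19.2% and 38.5% of all 1131. Over these 17 the median difference was -0.32 in series A and -0.26 in series B, beside 0.44 and 0.065 for all 1131. Rrm2, counted as lower at -1.16 with day 0 of series A alone, was higher by 0.31 within series A. Besides Uhrf1, the helicase subunit Mcm2 read -0.72 and -1.49 at day 0 and -2.16 and -2.45 at day 4, a difference of -1.20 (SE 1.02). Cdc7, the kinase that fires replication origins, read 0.62 and 0.22 at day 0 and -0.53 and -1.17 at day 4, a difference of -1.27 (SE 0.94). Pold2, a subunit of DNA polymerase delta, read 0.29 and -1.11 at day 0 and 1.70 and 0.56 at day 4, a difference of 1.55 (SE 1.10). Mcm2 and Cdc7 were lower on both day 4 arrays than on either day 0 array, and Pold2 was higher on both. Such members were named for a shared direction in both series, so it is no finding about them. Mitosis genes were lower in 6 of 9, beside the same share, with a median of -0.27, a sign that turned under 4 of 11 alternatives.

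Cell cycle regulators ran both ways and had a median of 0.30. In both series 7 of 11 were higher and 4 were lower, beside 38.5% and 19.2% of all 1131. Btg2, an antiproliferative gene, read 0.28 and -0.86 at day 0 and 2.13 and 0.69 at day 4, a difference of 1.70 (SE 1.22). Skp1, the adaptor of SCF ubiquitin ligases, read -0.29 and -1.52 at day 0 and 1.11 and -0.22 at day 4, a difference of 1.35 (SE 1.04). Both were named for a shared direction, so day 4 values above the day 0 value of their own series are no finding about them. Skp2, which recognises substrates of that ligase, differed by 0.94 (SE 0.90), and E2f5, an E2F repressor, by -0.96 (SE 1.11). Without day 0 of series B the list's median was -0.0047.

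Cytosolic ribosomal proteins had a median of -0.56 over 18 probes. They were lower in both series for 8 of 16 and higher in both for 3, beside 19.2% and 38.5% of all 1131. Their ratios were already negative at day 0, with medians of -1.64 and -3.50 in series A and B, and were -1.79 and -4.31 at day 4. Rps24 read -2.07 and -2.51 at day 0 and -3.61 and -8.28 at day 4, a difference of -3.65 (SE 1.65). Rps12 read -1.73 and -4.31 at day 0 and -2.65 and -5.39 at day 4, and Rpl29 read -1.06 and -3.45 and then -2.03 and -4.67. Rpl12 read -1.07 and -0.71 at day 0 and -1.81 and -1.48 at day 4. Differences of Rps12, Rpl29 and Rpl12 were -1.0, -1.09 and -0.76, and the first 2 turned to 0.29 and 0.10 without day 0 of series A. The list's median was 0.073 with equal spread of arrays, 0.25 with quantile normalization 0.39 without day 0 of series A, and leaving out the series B array of day 4 gave 0.78. Genes of this family have processed pseudogenes and may share signal.

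Nucleolar and ribosome assembly genes were lower in 6 of 8, beside 44.3% of all 1707, with a median of -1.16, and 0.10 without day 4 of series B. Over the 5 on all 4 arrays the median difference was 0.26 in series A and -1.01 in series B. Besides Rrs1, Ubtf, the RNA polymerase I factor, read 0.81 and 0.81 at day 0 and -1.07 and 0.43 at day 4, a difference of -1.13 (SE 0.97). Polr1d, a subunit shared by RNA polymerases I and III, read -1.22 and -3.71 at day 0 and -0.16 and -1.74 at day 4, a difference of 1.51 (SE 1.07). The members named did not share a direction. Translation factors, with a median of -0.23, changed the sign of that median under 6 of 11 alternatives. Pabpc1, the poly(A)-binding protein, read -1.52 and -4.19 at day 0 and -0.36 and -2.86 at day 4, a difference of 1.25 (SE 1.26), and -0.092 without day 0 of series B. Eif4ebp1, which restrains eIF4E, read -1.40 and -4.28 at day 0 and -0.57 and -2.84 at day 4, a difference of 1.14 (SE 1.36), and -0.30 without day 0 of series B.

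Redox and metal protection genes had a median of 0.41 over 13 probes. They were higher in both series for 7 of 11 and lower in both for 2, beside 38.5% and 19.2% of all 1131. Besides Prdx2 and Mt2, Txnrd1, thioredoxin reductase, read 0.15 and -0.99 at day 0 and 1.58 and 0.23 at day 4, a difference of 1.32 (SE 0.91). Sod3, extracellular superoxide dismutase, read 0.97 and -0.80 at day 0 and 1.72 and 1.07 at day 4, a difference of 1.31 (SE 1.04). Chaperones were higher in both series for 8 of 13 probes and lower in both for 0, beside 38.5% and 19.2% of all 1131. Their median was 0.53 over 22, and -0.08 for day 4 ratios against 0. By their mean, 15 of 22 chaperone probes were higher, beside 55.7% of all 1707, and 9 of 13 redox probes. Among the chaperones with 1 day 0 array, the chaperonin subunits Cct4 and Tcp1 differed by -3.09 and -2.44, and Hspa9, Hspd1 and Hspa4 by -2.40, -2.03 and -1.80. These 5 were named after their values were seen. Their means set both day 4 arrays against day 0 of series A. Within series A their differences were -1.69, -1.01, -1.32, -0.085 and 0.0058. Dnaja1, Bag3 and Cct8, also with 1 day 0 array, were higher by 2.01, 1.20 and 1.10. Cct2, a subunit of the TRiC chaperonin, read -1.10 and -3.24 at day 0 and 0.51 and -1.32 at day 4, a difference of 1.76 (SE 1.04). Dnajc7, an HSP70 co-chaperone, read 0.52 and -0.40 at day 0 and 1.70 and 1.24 at day 4, a difference of 1.41 (SE 0.92). Dnajc7 and Txnrd1 had positive day 4 ratios on both arrays, whereas Cct2 had a day 4 mean of -0.41.

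Glycolysis and pentose phosphate genes had a median of 0.55 over 9 probes. They were higher in both series for 4 of 7 and lower in both for 1, beside 38.5% and 19.2% of all 1131. Pkm, pyruvate kinase, read -1.30 and -4.05 at day 0 and 1.57 and -2.61 at day 4, a difference of 2.16 (SE 1.58), and 0.066 without day 4 of series A. Pfkl, phosphofructokinase of liver type, read -0.64 and -0.53 at day 0 and 1.60 and 0.028 at day 4, a difference of 1.40 (SE 1.13). Hk1, the hexokinase of red cells, read -1.54 and -3.07 at day 0 and -1.98 and -5.74 at day 4, a difference of -1.56 (SE 1.18), and 0.32 without day 4 of series B. The 3 enzymes differ in how far series B departs from series A. In cholesterol and fatty acid synthesis 4 of 4 were higher by their mean, beside 55.7% of all 1707, with a median of 0.70. Acsl4, an acyl-CoA synthetase for arachidonate, read 0.49 and 1.37 at day 0 and 2.12 and 2.65 at day 4, a difference of 1.46 (SE 0.97).

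Ubiquitin conjugation genes were higher in both series for 6 of 17 and lower in both for 1, beside 38.5% and 19.2% of all 1131. The median over 25 was 0.044. Rnf11, a RING finger protein, read 0.81 and -0.83 at day 0 and 2.13 and 2.53 at day 4, a difference of 2.34 (SE 0.95). Rnf10, another RING finger protein, read 0.40 and 0.043 at day 0 and 1.80 and 1.13 at day 4, a difference of 1.24 (SE 0.88). Fbxo6, an F-box protein that binds glycoproteins, read 0.55 and -0.033 at day 0 and 1.85 and 1.03 at day 4, a difference of 1.19 (SE 0.88). In these genes both day 4 ratios were above 1 log2 and above both day 0 ratios. They were named for a shared direction, so it is no finding about them. Proteasome genes were higher in 10 of 17 by their mean, beside 55.7% of all 1707, with a median of 0.23, and leaving out the series B array of day 0 gave -0.23 and the series A array of day 4 gave -0.83.

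Apoptosis genes were higher in both series for 4 of 8 and lower in both for 0, beside 38.5% and 19.2% of all 1131. The median over 12 was 0.16. Pdcd4, an inhibitor of translation initiation, read 0.054 and -1.22 at day 0 and 1.13 and 1.13 at day 4, a difference of 1.71 (SE 1.06). Casp6, an executioner caspase, read 0.26 and -0.63 at day 0 and 0.67 and 2.07 at day 4, a difference of 1.55 (SE 1.06). RNA processing genes had a median of -0.14 that took the other sign under 5 of 11 alternatives. They ran both ways, 4 of 16 higher and 3 lower in both series, beside 38.5% and 19.2% of all 1131. Among them Srsf10, a splicing factor, read 0.73 and 0.35 at day 0 and 1.86 and 1.78 at day 4, and the RNA helicase Ddx3x read 1.80 and 1.96 at day 0 and -1.93 and 0.91 at day 4. Their differences were 1.28 (SE 0.94) and -2.39 (SE 1.11). Hnrnpu, a nuclear RNA-binding protein, read -1.40 and -4.48 at day 0 and 0.20 and -3.22 at day 4, a difference of 1.43 (SE 1.52), and -0.11 without day 0 of series B. The germ cell helicase Ddx4 read 1.24 and 1.40 at day 0 and -0.60 and 0.32 at day 4, a difference of -1.46 (SE 0.93). Mitochondrial respiration, lysosome and autophagy, and histones and chromatin had medians of -0.14, -0.14 and 0.0086, near that of all probes, with at least 4 of 11 alternatives giving the other sign. Mknk2, a kinase of translation factor eIF4E that was singled out after its values were seen, read -0.41 at day 0 of series B and 3.10 and 2.47 at day 4, a difference of 3.19 (SE 1.13).

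Markers of other cell types were set beside these lists. Mast cell genes were lower in 4 of 4 kept probes of 14, beside 44.3% of all 1707, with a median of -3.09, and none of 11 alternatives gave a positive median. The list includes Ndst2. The mast cell protease Mcpt2 read -1.04 at day 0 of series A and -3.26 and -5.95 at day 4, a difference of -3.56 (SE 1.31). The chymase Cma1 read 0.40 at day 0 of series A and -3.29 and -1.14 at day 4, a difference of -2.62 (SE 1.44). The granule proteoglycan Srgn read 0.11 at day 0 of series A and 0.063 and -2.39 at day 4, a difference of -1.27 (SE 1.39). The last 3 rest on 1 day 0 array and were named after their values were seen. Within series A the differences of Mcpt2, Cma1 and Srgn were -2.22, -3.69 and -0.043. In such bulk RNA, fewer cells of a type and less RNA per cell cannot be told apart. Megakaryocyte genes had 3 kept probes of 9 with a median of 0.31, and -2.18 without day 4 of series A and 2.72 with the filter at 11 arrays. They ran both ways, with Itga2b at 2.72 and the platelet factor gene Pf4 at -0.55. Macrophage and granulocyte genes had 4 of 24 with a median of 0.29, lymphocyte genes 3 of 28 with 0.17, and fibroblast genes 3 of 16 with 0.42. In the fibroblast list the intermediate filament gene Vim read -0.93 and -1.29 at day 0 and -3.24 and -2.06 at day 4, a difference of -1.54 (SE 0.97). The other kept members of that list, Tagln and Col1a1, went the other way by their mean, at 0.47 and 0.42. Ratios carry no level, so the labelled cell type cannot be checked by which markers are present, and the part of other cells in the results was not tested.

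The same probes are given here on the other days, as levels of the ratio in series A and then series B. Hba-ps3 read 0.69 on day 1 (A), 2.22 on day 2 (B), 5.73 and 2.07 on day 3, 4.82 and 5.97 on day 5, and 4.13 and 3.87 on day 6. Its day 4 value was the highest of series B, while series A was highest on day 3. Hbb-b2 read 2.43 on day 1 (A), -1.73 and 0.31 on day 2, 1.19 and 0.45 on day 3, 3.51 and 0.36 on day 5, and 1.86 and 2.22 on day 6, with both series at their highest on day 4. Itga2b read 0.75 on day 1 (A), 0.70 and 1.40 on day 2, -0.50 and 1.66 on day 3, 2.72 and 2.63 on day 5, and 1.24 and 2.81 on day 6. It was highest on day 4 in series A and on day 6 in series B. Myb read -0.43 on day 1 (A), -0.49 and -2.39 on day 2, -2.37 and -0.57 on day 3, -3.81 and -0.97 on day 5, and -3.09 and -1.13 on day 6. Series A stayed below -2 log2 from day 3, and series B was lowest on day 4. Ndst2 read -0.59 on day 1 (A), 1.09 and -3.10 on day 2, -3.92 on day 3 (A), -4.12 and -3.03 on day 5, and -3.42 on day 6 (A). Uhrf1 read -0.71 on day 1 (A), 0.29 on day 2 (B), 1.59 on day 3 (A), 0.26 on day 5 (B), and -1.80 and -1.24 on day 6. Ndst2 and Uhrf1 were lowest on day 4 in both series, with small margins in series A. There Ndst2 was at -4.25 on day 4 against -4.12 on day 5, and Uhrf1 at -1.83 against -1.80 on day 6. All probes of this paragraph were chosen by their day 4 minus day 0 differences. A highest or lowest value on day 4 is therefore no separate evidence about that day.

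Day 4 was also compared with its neighbours in the time course. Against day 3, 0 of 1599 probes were called by limma at an adjusted p under 0.05 (0.0%) and 66 (4.13%) had an unadjusted p under 0.05, and against day 5, 0 of 1638 (0.0%) and 66 (4.03%). These unadjusted shares were also below a fraction of 0.05. Cd164, a sialomucin of progenitors, read -1.48 and -0.26 at day 3 and 1.48 and 2.04 at day 4, a difference of 2.63 (SE 0.82; adjusted p = 0.967, limma). Olfr29-ps1, an olfactory receptor pseudogene, and Gcat were 4.69 and 3.88 log2 above day 3, each with 1 day 3 array. The RNA-binding La protein gene Ssb, the carbonic anhydrase Car2 of red cells and Uhrf1 were at -4.79, -4.11 and -3.60 log2 relative to day 3, also with 1 day 3 array. Car2 read 1.27 at day 3 of series A and -2.19 and -3.49 at day 4. Against day 5, Tubb5, a beta-tubulin, read -2.26 and -1.40 at day 5 and 0.27 and 1.33 at day 4, a difference of 2.63 (SE 0.97). Tnfaip2 and Pik3cg were higher by 2.45 and 3.67, Pik3cg with 1 day 5 array. Myo10, an unconventional myosin, read -0.03 and 1.45 at day 5 and -1.16 and -4.60 at day 4, a difference of -3.59 (SE 1.09). Dynlt1b and Pafah1b1 differed from day 5 by -3.10 and -4.06, Pafah1b1 with 1 day 5 array, and all 6 had adjusted p = 0.918 by limma. Values from 1 neighbouring array carry no spread of their own.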

How the data were processed

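The labels describe 18 arrays of MEL cell RNA. The log2 ratios deposited by the authors were used as given in the series value table; their log2 scale was recognised from the values, since low values on the 13 arrays used equal the log2 of a ratio with 3 decimals. Scanner, dyes, background correction and normalization are not given in the sources used here. The 5 arrays titled SD appear to have the sign turned and entered no fit. Each array was centred on its median. Group means of days 0 to 6 were fitted on all 13 arrays with limma 3.58.1 in R 4.3.3 (lmFit and eBayes), so that all days share 1 estimate of the spread (prior SD 1.02 log2, 12.4 prior degrees of freedom), and day 4 minus day 0 was tested on 1707 probes with Benjamini-Hochberg adjustment at 0.05. A probe without a value on an array was dropped there and nothing was imputed. The number of arrays limits the precision. Symbols came from GEO's platform annotation, 6108 probes with 1 symbol, 41 with several and 719 with none, of which 6062 matched RefSeq by Entrez identifier.

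Named genes were the 15 higher and 15 lower probes with 1 symbol, values on all 4 arrays and the same direction in both series, ranked by the smaller within-series difference; measured globin, heme and 9 listed regulator probes; up to 4 members with a shared direction per list of 28 lists; and 3 probes on each side by p for days 3 and 5. Some list members under this rule are left out of the text, a choice made after their values were seen. List members named under it share a direction between the series by choice, so that direction is no finding about them. The members and lists were chosen with earlier results of these data known. The fit was tested on simulated data with 200 changed probes. Alternatives were no centring, equal spread, quantile normalization, a series block, a filter at 11 of 13 arrays, leaving out each array, day 4 ratios against 0 and the 4 arrays alone.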

Additional observations from a re-analysis of the deposited data

Results flagged for a closer look

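The 5 arrays titled SD belong to no comparison above, and their sign appears turned relative to the other arrays. S1pr2 on 4 SD arrays of days after HMBA differed from the SD array of day 0 by -5.22 to -1.48 log2, with a median of -4.02, beside 3.35 for day 4 minus day 0 on the arrays without SD. Ndst2 on 3 SD arrays differed from the SD array of day 0 by 1.05 to 1.95, with a median of 1.23, beside -3.70. As stored, the differences of S1pr2 and Ndst2 are of opposite sign to those of day 4. With the sign of the SD arrays turned they would be of the same sign. Other ranked genes went the other way. Uhrf1 read -0.14 on the SD array of day 0, and -0.81, -0.50, -1.28 and -2.79 on those of days 2, 3, 5 and 6. Wsb2 read 0.55 and then -0.24, -0.45, -0.25 and 0.12. As stored, both share the negative sign of their day 4 differences, -2.57 and -2.01. Hba-ps3 read 1.73 on the SD array of day 0, and -4.25, 0.94, -2.78 and -4.20 on those of days 2, 3, 5 and 6. No SD array of day 4 is among the arrays used here.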

How the results depend on the processing

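The count of called probes in day 4 minus day 0, 0 with the fit as reported, stayed 0 without centring, with equal spread, with quantile normalization, with the filter at 11 arrays and when each array was left out; it was 31 when day 4 ratios were tested against 0 and 1 with the 4 arrays alone. In a fit with the series letter as a replicate block it was also 0, with 68 of 1612 probes at an unadjusted p under 0.05. Arrays share only a letter, and same-letter deviations correlated at r = 0.251 over 1131 probes from 2 pairs. Unadjusted counts were 49 as reported, with 18 to 77 when an array was left out, and they split into 43 higher and 14 lower without centring and 22 higher and 39 lower with equal spread. With at least 1 log2 in both series the same-direction share was 11.2%, and at 2 log2 it was 1.59%; as reported it was 57.7%, and 57.3 to 68.3% under the other alternatives. For days 3 and 5 the count stayed 0 with each scaling, the block, the filter and each array left out; ratios against 0 and the arrays of those days alone were not run for them.

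Of 84 named probes, 65 kept their direction under all alternatives that gave a value, as did 27 of the 30 ranked genes. The ranked genes were chosen for large differences of the same sign in both series, and many other named probes for a shared sign. Kept directions were therefore largely set by that choice, and no share was taken for unselected probes. Tested against 0, where day 0 is not used, the direction was turned for Bsg (-0.45), Gata2 (-1.31), Hnrnpu (-1.51), Pabpc1 (-1.61), Eif4ebp1 (-1.70), Pkm (-0.52), Nfe2 (-0.041), Cct2 (-0.41), Yy1 (0.024), Alad (-1.30), Ftl1 (-0.14), Polr1d (-0.95), Prdx2 (-0.30), Hbb-bh1 (-0.21) and E2f5 (0.06). Without centring, Hba-x was 0.25. Leaving out 1 array gave ranges that cross 0 for Gata2 (-0.57 to 1.12), Rpl29 (-2.41 to 0.22), Hk1 (-3.44 to 0.32), Hnrnpu (-0.28 to 3.14), Pabpc1 (-0.092 to 2.59), Eif4ebp1 (-0.30 to 2.58), Alad (-0.69 to 2.47), Hbb-bh1 (-0.28 to 0.79), Hba-x (-0.74 to 0.55) and Rps12 (-2.37 to 0.37). Ranges that kept their sign but were wide included Pkm (0.066 to 4.25), Rps24 (-5.99 to -1.32), Polr1d (0.26 to 2.75) and Prdx2 (0.92 to 4.13). Missing values limit which arrays can be left out, and the number of arrays limits what could be called.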
